A study of Mus musculus with 9 samples.

Results

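The carbonic anhydrases examined were 8 genes named by symbol (Car2, Car4, Car7, Car8, Car10, Car11, Car12 and Car14), and all 8 were found among the 32531 gene rows counted. They were followed across 9 RNA sequencing libraries of cerebral cortex from adult, untreated control mice, all carrying the Abcb1a-EGFP/Rpl10a transgene (line ES3026). In this line EGFP is fused to the ribosomal protein Rpl10a in cells that use Abcb1a regulatory sequence (the labels name endothelial cells), and antibodies to the tag pull down ribosome-bound RNA (the immunopurified fraction, IP). There were 3 IP libraries from investigator ES (ES IP), 3 from investigator JL (JL IP), and 3 of total input RNA from investigator JL (JL input); the submitters give the investigator who extracted the RNA as the only distinction between the ES and JL samples. The labels do not say which libraries come from different mice, and the p-values therefore reflect only how far these libraries scatter, which may be technical. Among the JL libraries the scatter also holds a sex difference of replicate 1, by the Ddx3y levels below. All libraries came from 1 transgenic line.

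Carbonic anhydrases speed the exchange between carbon dioxide and bicarbonate plus a proton. Cytosolic, membrane-bound, secreted and mitochondrial forms differ in where they set pH. In brain, Car4 is known on the luminal surface of capillary endothelium, where blood carbon dioxide and bicarbonate meet the barrier, and Car2 in oligodendrocytes and choroid plexus. The active enzymes hold a zinc ion with a set of histidines, and some family members lack part of that set and are called carbonic anhydrase-related proteins.

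The coding sequence around the zinc site separates the 8 members and is shown because it sorts them before any level is read. Each line holds 21 bases of the principal GENCODE M21 transcript (mm10), 5′ to 3′, with the first and second of 3 zinc-site codons in capitals.
Car2: cagtttCACtttCACtggggc
Car4: cagttgCACctgCACtggtca
Car7: cagctcCACttcCACtggggc
Car12: cagctgCACttgCACtggggg
Car14: cagctcCACctgCACtggggt
Car8: gaagttAGAtttCACtgggga
Car10: gaaatcCGGctaCACtttggg
Car11: gaactgCGCctgCTAtttgga
CAC and CAT encode histidine. In Car2 the site takes codons 94, 96 and 119. Car2, Car4, Car7, Car12 and Car14 (5 members) carry a histidine codon at all 3 aligned places. Car8 carries 2, with AGA at the first place, Car10 carries 1, and Car11 carries 0. The stretches lie in coding exons at chr3:14895063-14895083 (Car2, exon 3, plus strand), chr11:84964161-84964181 (Car4, exon 4, plus), chr8:104547728-104547748 (Car7, exon 3, plus) and chr9:66747641-66747661 (Car12, exon 4, plus). Those of Car14 (chr3:95900303-95900323, exon 4, minus), Car8 (chr4:8221607-8221627, exon 3, minus), Car10 (chr11:93490600-93490620, exon 5, plus) and Car11 (chr7:45702542-45702562, exon 4, plus) are also within 1 exon each.

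Libraries held 31987470 to 46598478 gene counts. Levels are CPM, counts scaled to a common library size after TMM scaling over the 9 libraries, as mean ± SD with n = 3; 3 counts, taken as the limit that a count of 0 allows, equal 0.0644 to 0.0938 CPM before that scaling, for counting error only. Fold changes are log2 values ± standard error, with p adjusted over all genes tested (edgeR quasi-likelihood, Benjamini-Hochberg) and a call made under 0.05. Abcb1a, the gene whose regulatory sequence drives the tag, stood at 451 to 491 CPM in JL IP, 37.5 to 55.2 in ES IP and 1.85 to 2.71 in JL input. Rpl10a held only 124 to 407 counts per library. It was not called between JL IP and input (0.37 ± 0.16, adjusted p = 0.0615) or between ES IP and input (-0.80 ± 0.32, adjusted p = 0.0645). It was called lower in ES IP than in JL IP (-1.09 ± 0.35, adjusted p = 0.0197). All 12 endothelial markers were higher in JL IP than in input, and their summed level was 9389 to 9845 CPM in JL IP, 950 to 1640 in ES IP and 59.7 to 69.2 in JL input. The 12 neuron markers summed to 2187 to 2945, 17965 to 19864 and 17207 to 17999 CPM in the same order of groups. Between ES IP and input 4 of the 12 were called higher, 3 lower and 5 neither, with log2 fold changes from -1.25 to 1.42. Over all genes tested there, 26.9% were called higher and 25.3% lower. The Y-linked Ddx3y stood at 78.7 CPM in JL IP replicate 1, 63.8 in JL input replicate 1 and 15.8 to 22.7 in ES IP, with 0.029 CPM or less in the other JL libraries, so replicate 1 differs in sex from replicates 2 and 3 in both JL groups, and the ES level lies between. The files' names give 1 sequencing lane for the ES libraries and 3 for the JL libraries, each with 1 IP and 1 input.

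In the first comparison, JL IP against JL input, 2 members were higher in the IPs and 6 were lower, which is all 8, beside 74.1% of all genes called in either direction. The background was large, with 36.7% of the 17357 genes tested called higher and 37.4% lower. The groups did not overlap for any of the 8 members, against 80.8% of all genes tested. The median log2 fold change of the members was -0.93, beside -0.09 for all genes tested. The IPs hold ribosome-bound RNA and the inputs total RNA. Capture of tagged cells, ribosome binding of a transcript and carry-over of untagged RNA therefore cannot be told apart. In the bulk input, fewer cells of a type and less RNA per cell cannot be told apart either.

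**Figure D1:**
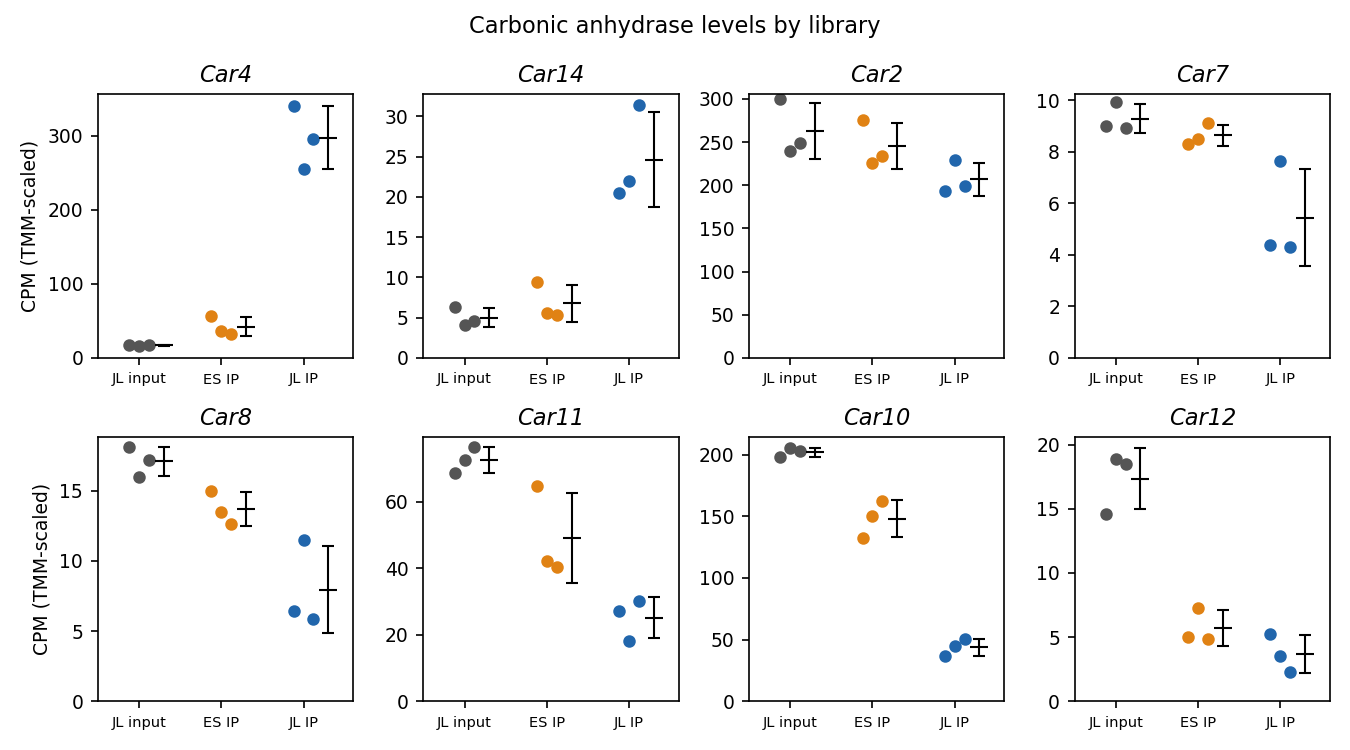
Level of each carbonic anhydrase in every library (vertical axis, CPM after TMM scaling, starting at 0), by group along the horizontal axis; dots are libraries, bars the mean ± SD of 3. Car4 and Car14 are highest in JL IP, and the other 6 genes are highest on average in the JL inputs.

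Car4, the membrane-anchored extracellular enzyme of capillary endothelium (chr11:84957786-84966044), had the largest increase of the 8. Its level was 340, 255 and 296 CPM in JL IP and 17.5, 16 and 17.0 CPM in JL input. The lowest IP library thus stood far above the highest input. The log2 fold change was 4.14 ± 0.12 (adjusted p = 1.38e-08), or 17.6-fold. Within lanes, where each JL IP was set against the input of the same number, the log2 ratios were 4.24, 3.95 and 4.08. The fold change of Car4 was smaller than that of each of the 12 endothelial markers, which ranged from 6.12 to 9.49; the difference between genes was not tested.

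The other member that rose was Car14, a transmembrane enzyme with an extracellular active site (chr3:95897768-95904691, minus strand). It stood at 20.5, 22.0 and 31.4 CPM in JL IP and 6.34, 4.13 and 4.57 CPM in JL input. Every IP library was above every input, and the log2 fold change was 2.30 ± 0.23 (adjusted p = 2.27e-05). Exons of Car14 share 445 bases with Aph1a on the opposite strand, and the strand setting of the counting is not given, so reads of that stretch cannot be told apart. Aph1a itself changed by 2.86 ± 0.34 (adjusted p = 7.16e-05) on 45 to 361 counts per library; its part in the Car14 value was not tested.

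The promoters of the pair that rose are shown as the 250 bases before the RefSeq start (GRCm38.p6, gene strand, 5′ to 3′), with matches to the motifs searched in capitals.
Car4: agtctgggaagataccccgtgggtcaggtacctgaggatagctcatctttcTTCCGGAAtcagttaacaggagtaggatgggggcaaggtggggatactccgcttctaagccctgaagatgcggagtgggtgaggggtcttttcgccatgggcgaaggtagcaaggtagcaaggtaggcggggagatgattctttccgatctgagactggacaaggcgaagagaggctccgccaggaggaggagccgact
Car14: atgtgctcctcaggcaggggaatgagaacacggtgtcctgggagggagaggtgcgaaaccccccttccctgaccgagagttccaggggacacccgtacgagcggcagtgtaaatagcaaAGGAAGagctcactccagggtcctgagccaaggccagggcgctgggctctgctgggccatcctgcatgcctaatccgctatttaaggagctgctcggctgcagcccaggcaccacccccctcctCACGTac
They lie at chr11:84957504-84957753 (Car4, plus strand) and chr3:95904686-95904935 (Car14, minus strand). Both strands were searched for the TATA box as TATAAA, the CCAAT box, the SP factor motif as GGGCGG, the ETS core in the form CCGGAA or in the form AGGAAG, the GATA motif as AGATAA, the SOX core as ACAAT, the forkhead core as TAAACA and the HIF core as ACGTG. The Car4 window held CCGGAA on both strands, as overlapping matches that begin 197 and 199 bases before the start. CCGGAA occurs in 12% of the 32851 promoter windows of this length. The Car14 window held AGGAAG 131 bases before the start, present in 29.5% of windows, and ACGTG on the other strand 7 bases before it, present in 16.6%. The 2 windows share no match, and TATAAA (12.4% of windows), CCAAT (33.8%), GGGCGG (32.7%), AGATAA (9.99%), ACAAT (27.7%) and TAAACA (12%) were in neither. The same letters also occur in windows of members that were lower: AGGAAG in Car11 and in a window of Car7, and ACGTG in a window of Car10. Car2 and Car8, which were also lower, had no window among those searched. GC content was 56.4% for Car4 and 62% for Car14, with 11 and 10 CpG.

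Car2, the fast cytosolic enzyme (chr3:14886273-14900770), had the smallest change. It was measured at 193, 229 and 199 CPM in JL IP and 300, 240 and 249 in JL input. The groups were separated by a narrow gap, between 229 and 240 CPM. The log2 fold change was -0.34 ± 0.10 (adjusted p = 0.0165), and the call ended without JL IP replicate 1 (adjusted p = 0.0592) or without JL input replicate 1 (adjusted p = 0.0638). Most oligodendrocyte markers moved further: 8 of 10 were lower, with a median of -2.58 over the 10. The other 2 were called higher, Mal (514 CPM in JL IP, 302 in JL input) and Cldn11 (66.5 and 44.3). The 10 markers summed to 910 to 1072 CPM in JL IP, with Mal the largest part, and 2652 to 3070 in JL input. Choroid plexus markers summed to 53.3 to 74.9 and 668 to 764 CPM in the same libraries. The part of these cells in the Car2 level was not tested.

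Car7, a cytosolic enzyme known from neurons (chr8:104534689-104550343), fell by less than the neuron markers. Its level was 4.38, 7.63 and 4.32 CPM in JL IP against 8.99, 9.92 and 8.92 in JL input. JL IP replicate 2 stood apart from the other IPs but below every input. The log2 fold change of -0.76 ± 0.25 (adjusted p = 0.0228) lost its call without JL IP replicate 1, JL IP replicate 3 or any 1 of the inputs (adjusted p from 0.0548 to 0.0794). Neuron markers ranged from -3.79 to -1.50; the difference was not tested.

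All 3 related proteins without the full zinc site were lower in JL IP, beside 37.4% of all genes tested. Car2, Car7 and Car12, which have the full site, were lower too. Car8, which binds the inositol trisphosphate receptor (chr4:8143362-8239041, minus strand), stood at 6.44, 11.5 and 5.87 CPM in JL IP and 18.1, 16 and 17.2 in JL input. As with Car7, replicate 2 was the highest IP library, and the log2 fold change was -1.10 ± 0.25 (adjusted p = 0.0039). Car10, a secreted neurexin ligand (chr11:93098028-93601749), stood at 36.3, 44.5 and 50.3 CPM against 198, 205 and 203. The inputs agreed closely and lay far above the IPs, with a log2 fold change of -2.21 ± 0.11 (adjusted p = 3.27e-07). Car11, a secreted relative of Car10 (chr7:45699843-45704682), stood at 27.0, 18.2 and 30.1 CPM against 68.7, 72.7 and 76.5, without overlap, and changed by -1.53 ± 0.17 (adjusted p = 4.78e-05).

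Car12, a transmembrane enzyme with an extracellular active site (chr9:66713686-66766845), had a log2 fold change close to that of Car10. It stood at 5.27, 3.54 and 2.29 CPM in JL IP and 14.6, 18.9 and 18.5 in JL input. The IPs were spread widely, yet all were below the inputs. The log2 fold change was -2.23 ± 0.29 (adjusted p = 0.000134).

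Within lanes all 3 log2 ratios were below 0 for each of the 6 members that were lower. They ran from -0.63 to -0.07 for Car2, -0.97 to -0.36 for Car7, -1.47 to -0.45 for Car8, -2.43 to -2.01 for Car10, -1.97 to -1.33 for Car11 and -2.77 to -1.39 for Car12. For Car14 they were 1.62, 2.28 and 2.65. These ratios were taken after adding 0.5 CPM and are values with no test.

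**Figure D2:**
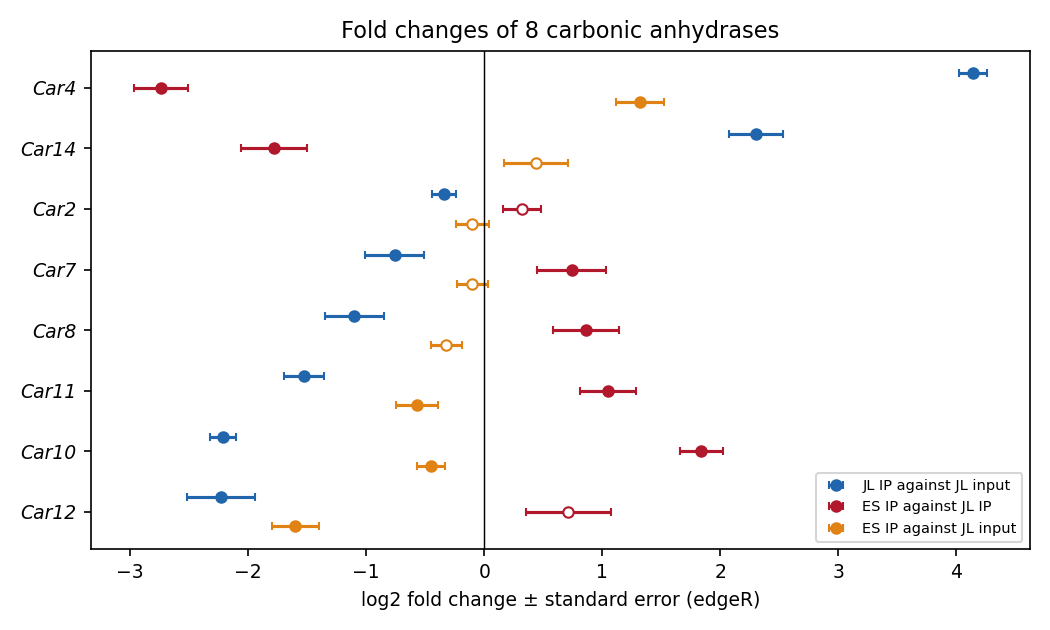
Log2 fold change ± standard error (horizontal axis, edgeR) of the 8 genes in the 3 comparisons; filled symbols passed an adjusted p of 0.05 and open ones did not. Car4 (4.14) and Car14 (2.30) lie to the right of 0 for JL IP against JL input and the other 6 to the left.

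The second comparison, ES IP against JL IP, set the same fraction from 2 extractions side by side. Of the 8 members 4 were higher in ES IP (29.7% of 16212 genes tested were), 2 were lower (28.2%) and 2 did not pass (57.9% of genes were called in either direction). It shares the JL IP libraries with the first comparison, so the signs of the first are no separate observation. The groups differ in lane as well as investigator, and these cannot be told apart. Sex differs within JL IP, by the Ddx3y levels above. Groups did not overlap for 6 of 8 members, beside 65.7% of all genes tested. The median log2 fold change of the members was 0.73, beside 0.03 over all genes tested.

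Car4 stood at 56.7, 36.9 and 32.9 CPM in ES IP. Its level there was below that of every JL IP, with a log2 fold change of -2.74 ± 0.23 (adjusted p = 2.96e-06), a value inside the range of the 12 endothelial markers (-3.42 to -2.51). Car14 stood at 9.47, 5.60 and 5.33 CPM in ES IP, also below every JL IP, and changed by -1.78 ± 0.28 (adjusted p = 0.000241). For Aph1a, its neighbour on the other strand, the change was -1.13 ± 0.34 (adjusted p = 0.0138).

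Car10 stood at 132, 150 and 162 CPM in ES IP, above every JL IP, with a log2 fold change of 1.84 ± 0.18 (adjusted p = 9.27e-06). Car11 stood at 64.8, 42.1 and 40.5 CPM and changed by 1.05 ± 0.24 (adjusted p = 0.00354); ES replicate 1 was its highest IP library. Car8 stood at 15, 13.5 and 12.6 CPM and changed by 0.86 ± 0.28 (adjusted p = 0.0221). Its call ended without ES IP replicate 2, JL IP replicate 1 or JL IP replicate 3 (adjusted p from 0.052 to 0.0737). Car7 stood at 8.29, 8.50 and 9.10 CPM and changed by 0.74 ± 0.29 (adjusted p = 0.0471). That call ended without any 1 of the ES IPs, JL IP replicate 1 or JL IP replicate 3 (adjusted p from 0.0592 to 0.126), and with no filter on low counts (adjusted p = 0.0506). All 12 neuron markers were higher in ES IP, with log2 fold changes from 2.13 to 4.17.

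Car2 and Car12 did not pass. Car2 stood at 276, 226 and 234 CPM in ES IP, overlapping the JL IPs (0.32 ± 0.16, adjusted p = 0.111). Car12 stood at 5.01, 7.30 and 4.83 CPM, also overlapping (0.71 ± 0.36, adjusted p = 0.117); without JL IP replicate 1 it was called higher (1.05 ± 0.36, adjusted p = 0.0326).

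The third comparison, ES IP against JL input, lacks input of its own investigator or lane, so fraction, investigator and lane cannot be told apart. It shares its libraries with the other two. Of the 8 members 1 was higher (26.9% of 17477 genes tested were), 3 were lower (25.3%) and 4 did not pass (52.2% of genes were called in either direction). Groups did not overlap for 5 of 8 members, beside 64.2% of all genes tested, and the median of the members was -0.21 beside 0.00 over all genes tested.

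Car4 was the member that was higher, at 1.32 ± 0.20 (adjusted p = 0.000947), with every ES IP above every input. Car12 was lower in ES IP by the largest margin of the 8 (-1.60 ± 0.20, adjusted p = 0.000387), and each ES IP lay below each input. Choroid plexus markers summed to 6.35 to 10.1 CPM in ES IP and 668 to 764 in JL input, and all 8 were lower; their part in the Car12 value was not tested. Ttr, the highest of them, stood at 1.11 ± 0.431 CPM in ES IP and 658 ± 50.7 in JL input.

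Car10 (-0.45 ± 0.12, adjusted p = 0.0158) and Car11 (-0.57 ± 0.18, adjusted p = 0.0292) were lower too. The Car10 call ended without any 1 of the inputs (adjusted p from 0.0537 to 0.0724), and that of Car11 without any 1 of the inputs, ES IP replicate 2 or ES IP replicate 3 (adjusted p from 0.0606 to 0.109). Car8 did not pass (-0.32 ± 0.13, adjusted p = 0.0609), although the libraries did not overlap. It was called lower with upper quartile factors (adjusted p = 0.0117), library size alone (0.0201), the filter at 1 CPM (0.0316), DESeq2 (0.0433) and without ES IP replicate 1 (0.0102). Car2 (-0.10 ± 0.14, adjusted p = 0.575), Car7 (-0.10 ± 0.13, adjusted p = 0.545) and Car14 (0.44 ± 0.27, adjusted p = 0.199) overlapped between groups.

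Gene by gene, the order of the group means was JL IP, ES IP, JL input for Car4 and Car14, and JL input, ES IP, JL IP for the other 6. For Car4 each step passed its test. For Car10 and Car11 each step passed too, the step from input to ES IP with the replicate dependence given above. The ES IP and input did not differ by the test for Car2, Car7, Car8 and Car14, and ES and JL IP did not for Car2 and Car12.

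The make-up of carbonic anhydrase RNA was compared per length, since counts grow with transcript length. CPM was divided by the exon length of each gene and expressed as a share of the sum over 16 family genes, the 8 members and 8 others. In the inputs Car2 held 53.7 ± 3.46% of the family, Car11 18.8 ± 1.87%, Car10 15.8 ± 1.19% and Car4 4.25 ± 0.0984%. In the JL IPs Car4 held 48.3 ± 5.61% and ranked first, Car2 held 27.5 ± 3.70%, Car11 4.16 ± 0.884% and Car10 2.21 ± 0.358%. The ES IPs stood close to the inputs for Car2 (52.7 ± 1.83%) and between for Car4 (11.0 ± 1.77%), Car11 (13.1 ± 1.73%) and Car10 (12.3 ± 2.68%). Car14 held 3.10 ± 0.676% in JL IP and 0.971 ± 0.167% in JL input, while Car7, Car8 and Car12 each held at most 2.25% in every library. The summed level of the family per kilobase was 297 to 320 CPM in JL IP, 177 to 223 in ES IP and 192 to 215 in JL input. With coding length in place of exon length Car4 still ranked first in JL IP (39.4 ± 5.63%) and Car2 second (32.4 ± 3.56%), and Car10 moved to second place in JL input (27.9 ± 1.90%), above Car11 (10.8 ± 1.02%).

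**Figure D3:**
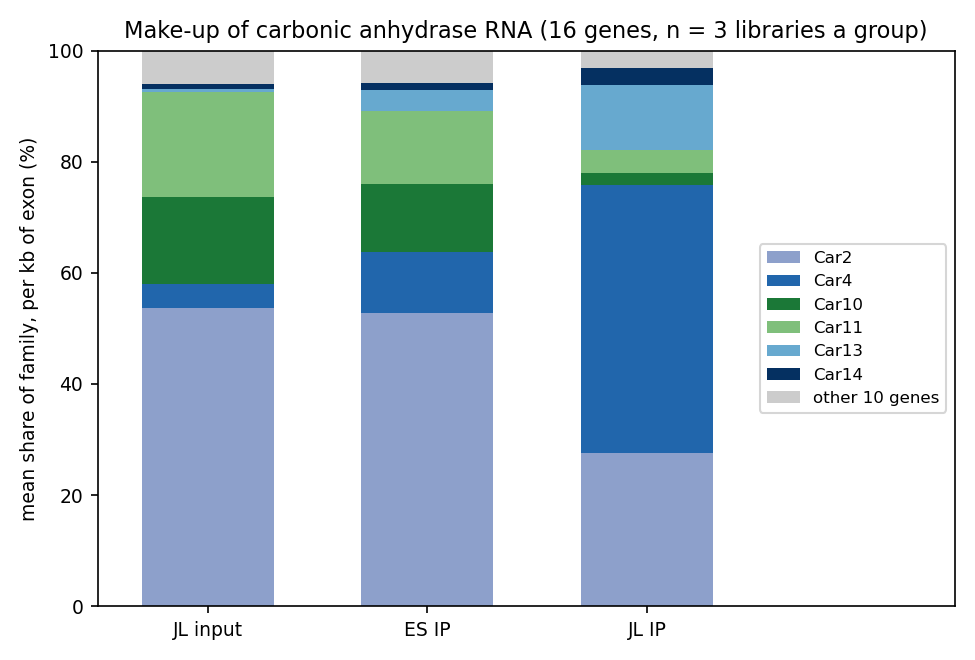
Mean share of each gene in the carbonic anhydrase RNA of a group (vertical axis, percent of CPM per kilobase of exon summed over 16 genes, 3 libraries a group). Car2 takes 53.7% in JL input and 27.5% in JL IP, and Car4 takes 4.25% and 48.3%.

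Among the other 8 family genes, Car13 had the highest level in both IP groups. Car13, a cytosolic enzyme, stood at 63.7, 85.7 and 99.0 CPM in JL IP, 24.7, 16.8 and 9.49 in ES IP and 2.41, 2.45 and 2.30 in JL input. No groups overlapped, and its log2 fold change of 5.11 ± 0.18 for JL IP against input (adjusted p = 3.86e-08) was larger than that of Car4. It was also lower in ES than JL IPs (-2.21 ± 0.31, adjusted p = 0.000113) and higher in ES IPs than input (2.82 ± 0.32, adjusted p = 0.000243). Per kilobase of exon it held 11.6 ± 2.50% of the family in JL IP and 0.517 ± 0.0353% in JL input.

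Both mitochondrial forms were higher in JL IP than in input. Car5a had 143, 132 and 123 counts in JL IP and 0, 4 and 0 in JL input, and was called higher (7.15 ± 0.81, adjusted p = 5.52e-05). Its log2 fold change was the largest among the family genes tested, on few input counts. Car5a was lower in ES IP than in JL IP (-2.32 ± 0.44, adjusted p = 0.000969) and higher in ES IP than in input (4.77 ± 0.89, adjusted p = 0.00271). It shares 314 exon bases with BC048644 on the opposite strand, which was called higher as well (6.48 ± 1.14, adjusted p = 0.00084). Car5b stood at 9.30 ± 2.32 against 3.86 ± 0.288 CPM (1.27 ± 0.23, adjusted p = 0.00112). Car15, a membrane-anchored enzyme, was lower in JL IP (-1.26 ± 0.46, adjusted p = 0.033), a call that ended without JL IP replicate 3 or any 1 of the inputs (adjusted p from 0.0504 to 0.12). Car3 had 38, 2 and 0 counts in JL IP and was not called (adjusted p = 0.655), but was called lower without JL IP replicate 1 (adjusted p = 0.00319). Car1, of red blood cells, had 0 to 8 counts per library, Car9 had 0 to 31, and Car6 had 3 counts in all 9 libraries together. Of the 5 tested genes among these 8, 3 were higher and 1 was lower, beside 36.7% and 37.4% of all genes tested.

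Genes that act beside carbonic anhydrases in pH and carbon dioxide handling were counted by list for JL IP against input. Over all genes tested in that comparison, 36.7% were called higher and 37.4% lower. Of 16 bicarbonate transporters tested, 4 were higher and 9 lower, with a median of -1.24. Slc26a7, an anion transporter, stood at 11.8 ± 3.30 against 0.444 ± 0.113 CPM (4.72 ± 0.32), and Slc26a2, a sulfate transporter, changed by 2.70 ± 0.31 and Slc26a10 by 2.51 ± 0.39. Of 16 genes of sodium-proton exchangers and their partners 5 were higher and 7 lower (median -0.29). The leading one, Slc9a3r2, is a scaffold and not an exchanger, at 1511 ± 216 against 26.4 ± 0.650 CPM (5.84 ± 0.13). The exchanger Slc9a2 changed by 3.52 ± 0.14 and the exchanger cofactor Chp2 by 3.55 ± 0.33.

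Of 5 monocarboxylate transport genes 2 were higher, Slc16a1 (3.10 ± 0.10), a lactate and proton cotransporter, and its partner Bsg (4.27 ± 0.07), and 2 were lower, among them Slc16a7, at 6.36 ± 0.824 against 25.6 ± 2.33 CPM. Of 8 genes of proton and bicarbonate sensing 2 were higher and 5 lower. Those higher were the proton-sensing receptor Gpr4, at 191 ± 26.4 against 2.62 ± 0.107 CPM (6.19 ± 0.14), and Ptprg, a receptor phosphatase with a carbonic anhydrase-like outer domain (2.33 ± 0.07). Of 5 water and gas channels 1 was higher, Aqp11 (2.75 ± 0.13), and 3 were lower, with the astrocyte water channel Aqp4 at -2.96 ± 0.21. The medians of the last 3 lists were -0.32, -1.65 and -2.69, beside -0.09 over all genes tested. Each gene named in this and the preceding paragraph on the lists had an adjusted p of 0.000391 or less.

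**Figure D4:**
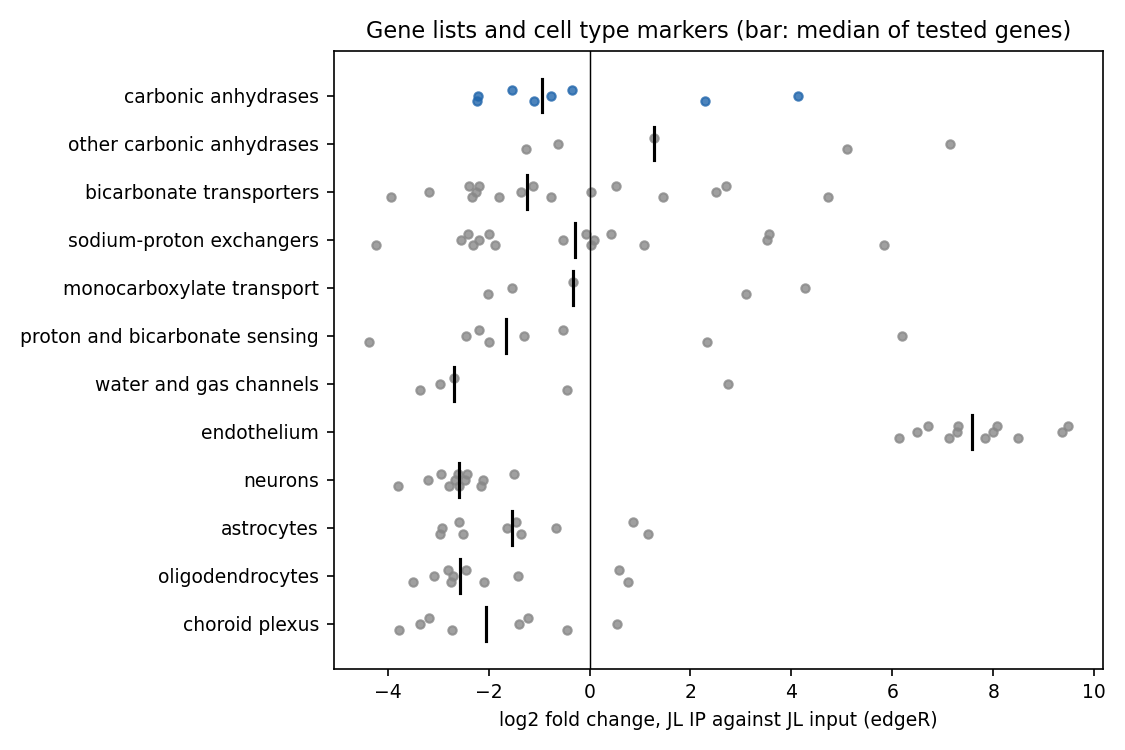
Log2 fold change for JL IP against JL input (horizontal axis, edgeR) of every tested gene in the carbonic anhydrase, pH and carbon dioxide handling and cell type marker lists (rows); dots are genes and bars the median of the tested genes. Of the 8 members, the 2 on the right, Car4 and Car14, lie below the lowest endothelial marker (6.12). The lowest member, Car12 (-2.23), lies within the ranges of the neuron, astrocyte, oligodendrocyte and choroid plexus markers alike. Among the other carbonic anhydrases, Car5a (7.15) lies above that endothelial marker, and Car13 (5.11) and Car5b (1.27) lie to the right of 0.

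Between ES and JL IP these lists moved in both directions. Called higher and lower were 4 and 5 of 15 bicarbonate transporters, 6 and 4 of 16 exchanger genes, 1 and 2 of 5 monocarboxylate genes, 5 and 2 of 8 sensing genes, and 1 and 1 of 2 channels. Over all genes tested, 29.7% were called higher and 28.2% lower. Slc26a7 (-2.57 ± 0.35), Slc9a2 (-3.13 ± 0.25), Slc16a1 (-2.38 ± 0.16), Gpr4 (-2.81 ± 0.20) and Aqp11 (-2.02 ± 0.20) were lower, as Car4 was. Slc4a3, a chloride and bicarbonate exchanger (2.13 ± 0.24), and Tesc, an exchanger cofactor (2.87 ± 0.23), were higher, with adjusted p-values of 9.9e-05 or less for these 7. In the ES IPs against input Gpr4 (3.30 ± 0.18, adjusted p = 8.32e-06) was higher and Slc4a4, the sodium bicarbonate cotransporter of astrocytes, was lower (-1.12 ± 0.23, adjusted p = 0.0042).

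Most markers of other cell types fell between JL input and JL IP. Called lower were 12 of 12 neuron markers, 8 of 10 for astrocytes, 8 of 10 for oligodendrocytes, 5 of 6 for their precursors, 7 of 8 for microglia, 4 of 7 for pericytes, 2 of 5 for smooth muscle, 5 of 8 for choroid plexus and 2 of 3 tested for erythroid cells. Over all genes tested, 37.4% were called lower and 36.7% higher. Markers of high level were Slc2a1 (2983 CPM in JL IP, 33.2 in input) and Ptprb (1468 and 10.6) for endothelium, Snap25 (1373 and 10502) and Camk2a (282 and 1705) for neurons, and Slc1a2 (206 and 1567) and Slc4a4 (55.8 and 143) for astrocytes. Called higher were 2 astrocyte, 2 oligodendrocyte, 1 pericyte and 1 smooth muscle marker. No listed marker was at 0 in all libraries of a group.

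For each member the 3 genes most alike were those with the smallest root mean square difference of centred log2 levels over the 9 libraries, among 13599 named genes. With 3 groups in the data such likeness mostly reflects group means, and it is a description. For Car4 they were Syngr2 (0.126), Ly6e (0.137) and Cd34 (0.156), the last a surface protein of endothelium, at 421 CPM in JL IP, 71.8 in ES IP and 24 in JL input. For Car10 they were Cdk14 (0.0802), Wscd2 (0.0936) and Ttc3 (0.0939), and for Car11 Tst (0.0896), Gng3 (0.112) and Rxfp3 (0.153). Car14 was nearest Ccdc23 (0.156), Tyms (0.187) and Tprgl (0.2), and Car12 nearest Chn1os3 (0.205), Ninj2 (0.214) and Gpr165 (0.223). Car2 was nearest Ankra2 (0.0893), Hdhd2 (0.106) and Dusp19 (0.108), Car7 nearest Luc7l3 (0.087), Ankrd6 (0.117) and Zfp661 (0.121), and Car8 nearest Cage1 (0.122), Tifab (0.154) and Gramd4 (0.159). Among the members themselves the closest pair was Car7 and Car8 (0.191) and the most distant Car4 and Car10 (2.68).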

How the data were processed

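Each of the 9 deposited files lists unnormalised counts by gene, which the authors made with STAR 2.0.0e on mm10 and HTSeq, per the submitters' processing notes. Annotation, strand setting and filters: not given in the sources used here. HTSeq's special rows and the row for unknown genes (0 to 3 counts) entered neither library sizes nor tests. Reads without a feature were 17.3 to 24.4%. Ambiguous reads were 10.3 to 11.3% in JL input and 2.04 to 2.54% in the IPs. This share differs with fraction, and its part in the fold changes was not tested. The rRNA precursor row Rn45s held 15.7 to 17.9% of gene counts in JL IP, 6.04 to 12% in ES IP and 4.83 to 5.29% in JL input. Reads without a unique alignment have a special row and belong to no gene. The test was edgeR 4.0.16 under R 4.3.3, using filterByExpr, TMM factors, glmQLFit and glmQLFTest, each fit on the 2 groups compared, with Benjamini-Hochberg adjustment over all genes tested. Standard errors are log2 fold changes divided by the square root of F. DESeq2 1.42.0 and limma-voom (limma 3.58.1) were alternatives, with other scalings and filters, the 3-group fit, the replicate number as a block, and each replicate left out. Coordinates and lengths come from GENCODE M21 (all 8 members matched) and promoters from RefSeq (GRCm38.p6). Zinc-site codons were placed by aligning translated coding sequences to that of Car2 with Biopython 1.88. Replicates were no repeat deposits: chi-square per degree of freedom between them was 7.33 to 9.45 in JL input and 29.1 to 38.6 in JL IP. In ES IP it was 72.6 between replicates 2 and 3, and 190 and 231 for replicate 1 against these, so replicate 1 stood apart. Named genes were the 8 members, Abcb1a, Rpl10a, all other carbonic anhydrases, of each pH list up to 3 genes with the largest called change at 5 CPM or more, and the most alike genes. Some genes that this rule takes are not reported here. Members, lists and markers were chosen with earlier results of these data known.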

Additional observations from a re-analysis of the deposited data

How the results depend on the processing

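Of 384 alternative values for the 8 members, 354 kept direction and side of the threshold, 24 lost the call, 6 gained one and 0 changed sign; Car4 kept its call in all 3 comparisons under every alternative run. With 1 replicate left out, the members called higher in ES IP against JL IP ranged from 2 to 4 (4 with all), and those called lower in ES IP against JL input from 1 to 4 (3 with all). Upper quartile factors moved the median of all genes from -0.09 to -0.34 for JL IP against input and library size alone to -0.35. For ES IP against input, upper quartile factors moved the split of calls from 4704 higher and 4422 lower to 3705 and 5395. Values that changed sign were never called: Car9 in ES IP against input (-0.18 with all libraries, -1.90 to 0.36 with 1 left out, above 0 in 4 of these 6 at 0.06, 0.18, 0.19 and 0.36), Snap25 there with upper quartile factors (-0.03), Acta2 and Tagln there without ES IP replicate 3 (0.07 and 0.00; ranges with 1 left out -0.50 to 0.07 and -0.34 to 0.00), and, in ES IP against JL IP, Hbb-bs without ES IP replicate 1 (-0.25; range -0.25 to 0.91) and Hba-a2 without JL IP replicate 1 (0.39; range -1.19 to 0.39). The causes were not tested. Same-numbered JL IP and input libraries deviated together with correlations of 0.14, 0.063 and 0.093, and each correlated best with its own number, which is a hint from the data only; the labels do not say that numbers mark shared animals. With the replicate block, 2 members were higher and 6 lower for JL IP against input, among 6124 and 6307 genes, and no member's call changed in any comparison. No label links ES numbers to JL numbers, so in the ES comparisons the block is arbitrary. Same-numbered ES and JL IPs had correlations of 0.0845, -0.0367 and 0.0362. For JL IP against input the standard errors of Car7, Car8, Car12 and Car14 were 0.23 to 0.29, beside 0.10 to 0.17 for the others; the parts of depth and of spread between libraries were not tested.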
